A study of Mus musculus with 4 samples.

Results

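The genes described here are the extracellular and receptor-level genes of the Wnt pathway with its Axin and TCF/LEF genes, 50 of the 25965 entries of the count table. The rule that took them used gene symbols and no measured value, but it was set with earlier results of these data known. They comprised 20 ligands (the Wnt genes and Ndp), 10 Frizzled receptors and the co-receptors Lrp5 and Lrp6. A further 8 genes, of the Sfrp and Dkk families, were grouped as secreted antagonists. The rest were 4 R-spondins, 2 Axin genes and 4 TCF/LEF transcription factors. The samples were female mouse neural stem cells, grown from E14.5 embryos, that differed in deletion of Smchd1, the gene of a chromatin protein. No protein was measured here. The deleted group was Smchd1 del/del, obtained by transduction with MSCV-Cre-puro, which brings Cre and puromycin resistance, with puromycin from 24 h and harvest 7 days after transduction. The control group was Smchd1 del/fl, so it also lacked 1 Smchd1 allele, and was neither transduced nor selected. Deletion therefore cannot be told apart from transduction and puromycin selection. All cells of both groups carried a maternal X chromosome of 129 origin with an Xist deltaA allele and a paternal Castaneus (Cast) X, which is the X subject to inactivation, on a strain background labelled as a mix of C57BL/6, 129 and Castaneus. Of the lines in the series' design text (3 per genotype), 2 lines, called A and B, were analysed here, each with 1 deleted and 1 control library (4 libraries, 2 per group).

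Wnt proteins are secreted, lipid-modified ligands that bind Frizzled receptors. In the beta-catenin branch, Lrp5 and Lrp6 join the receptor, Axin is drawn to the membrane, and beta-catenin escapes destruction and acts in the nucleus with TCF/LEF factors. Other Wnt and Frizzled signals act on cell polarity and migration. Sfrp proteins and most, but not all, Dkk proteins hold ligands or co-receptors back, and R-spondins keep receptors at the surface. In the developing forebrain the pathway is known for patterning the dorsal telencephalon and for its part in the proliferation and differentiation of progenitors.

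The 4 libraries held 29873400 to 34018500 counts. Smchd1 had 785 and 852 counts in the deleted libraries A and B, against 2779 and 3461 in the controls A and B, a log2 change of -1.96 (SE 0.07, adjusted p = 0.0194, edgeR with line as a block). The neural stem cell genes Sox2 (7843 to 10507 counts), Nes (28811 to 49410) and Fabp7 (35802 to 64684) were abundant in all 4 libraries. Of 6 microglial markers, Cx3cr1, C1qa and Tmem119 had no count, and the others reached up to 304 counts in a library. Of 7 mesenchymal markers, Lum and Dcn had no count, and the others reached up to 54. Of 5 choroid plexus markers, Ttr had no count, and the others reached up to 15. The deleted library of line A stood apart in 12 interferon-stimulated genes, whose summed level was 473 and 94.7 CPM (counts per 1000000 total counts) in deleted A and B, against 111 and 78.0 CPM in controls A and B. For that reason, the changes nearest to or past the threshold are also given without that library. Markers of astrocytes moved with the deletion. Their summed level over 8 genes was 3223 and 3387 CPM in deleted A and B, against 1729 and 1889 CPM in controls A and B. Of the 8, 6 rose (adjusted p under 0.05, edgeR with line as a block), against 3.71% of all genes tested. The lists were chosen with earlier results of these data known, so this is a description and not an independent comparison. The part of the interferon or the astrocyte list in the results below was not tested. In these bulk samples, fewer cells of a type and less RNA per cell cannot be told apart.

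The clearest difference among these genes was a gain of the receptor Fzd9, whose transcript was on average 2.33-fold as abundant in deleted cells as in control cells and was higher in each line. The receptor Fzd10 was higher, and the ligand Ndp and the receptor Fzd3 were lower, in both deleted libraries than in both controls, and each narrowly missed the threshold. The most abundant Wnt ligands (Wnt7b, Wnt7a and Wnt5a), the co-receptors, the antagonists, the Axin genes and the TCF/LEF factors showed no change past the threshold. Of the 32 members with enough counts to be tested, 1 rose (3.13%) and 0 fell, against 3.71% and 1.89% of the 14860 genes tested at an adjusted p under 0.05 in edgeR; DESeq2 called 1 member higher and 2 lower. Before adjustment, 6 members had a positive and 3 a negative change with p under 0.05, against 17.2% and 13.6% of all genes tested. The median log2 change of the 32 was 0.01, the same to 2 decimals as over all genes tested, and their median absolute change was 0.21, against 0.19 over all genes. The groups did not overlap in CPM for 9 of the 32 members, against 45.2% of all genes tested. The plot of levels by library shows these members across the range from Lef1 to Fzd9.

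**Figure D1:**
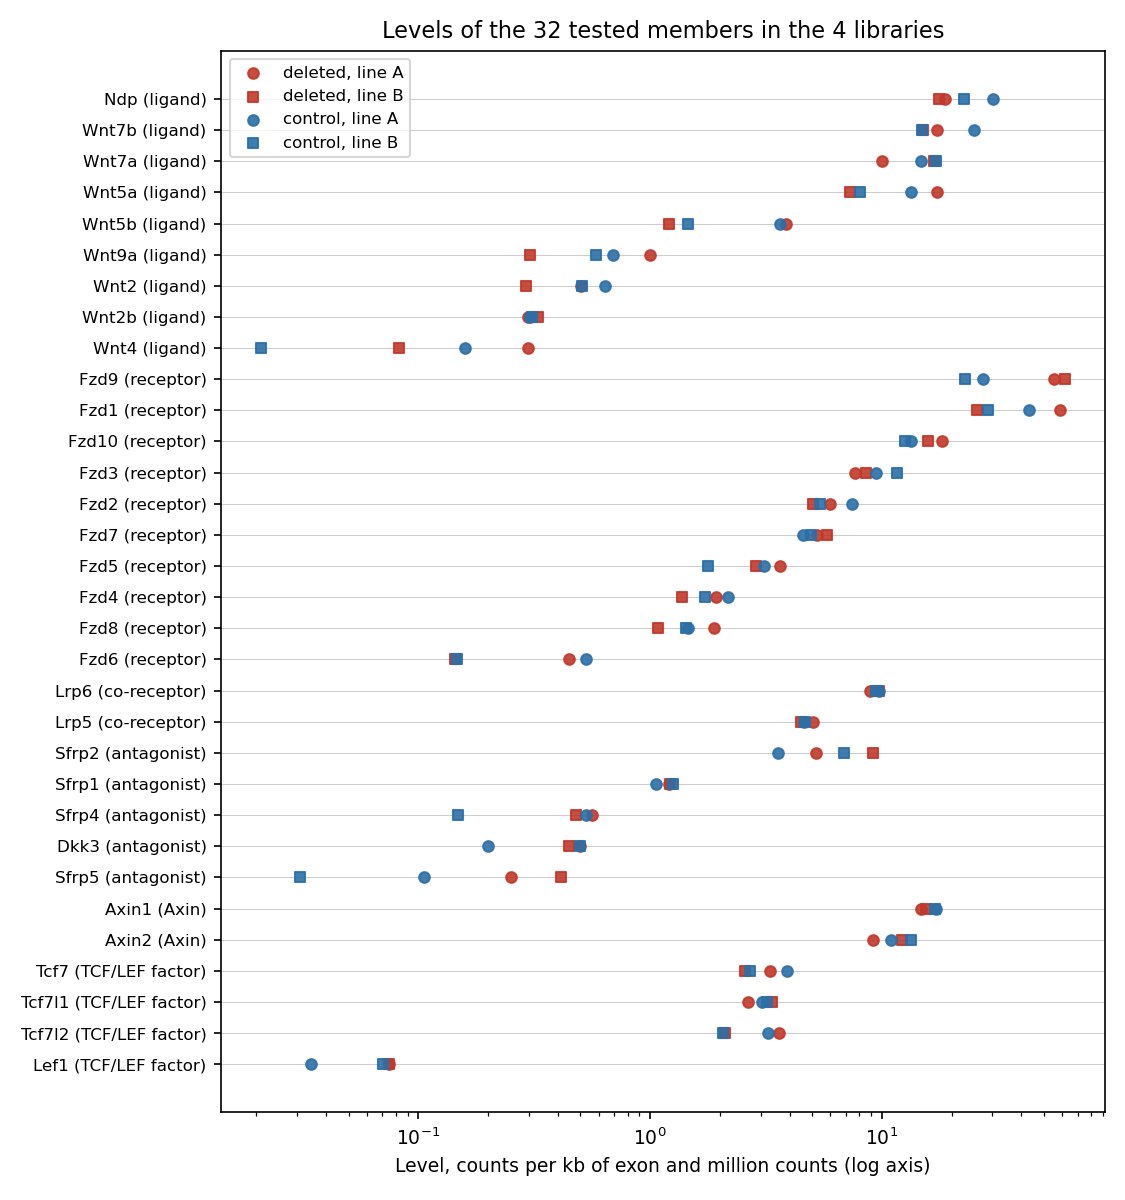
Level of each of the 32 tested members (CPM per kb of exon, log axis) in the deleted (red) and control (blue) libraries of line A (circles) and line B (squares), grouped by role. Mean levels run from 0.0635 to 41.8, and Fzd9 shows a wide gap between deleted and control libraries, with 55.4 and 61.4 in deleted A and B against 27.3 and 22.9 in controls A and B.

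Among the ligands, 9 of 20 were tested and none was called on total counts, with 3 positive and 6 negative log2 changes (median -0.13). Per kb of exon, Ndp, Wnt7b, Wnt7a and Wnt5a were the leading ligands in each of the 4 libraries. Together with Ndp, the 3 Wnt genes accounted for nearly all ligand transcripts per length: Ndp made 26.9% and 29.9% of the summed ligand level in deleted A and B, against 33.9% and 34.4% in controls A and B. Wnt7b made 24.8% and 25.4% in deleted A and B, against 28.2% and 22.7% in controls A and B.

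Ndp encodes norrin, a ligand outside the Wnt family that signals through Fzd4 with Lrp5 or Lrp6 and Tspan12 and is known for its role in retinal blood vessels. It lies on the X chromosome (chrX:16885521-16911774, minus strand, mm10). Ndp had 1217 and 1092 counts in deleted A and B, against 1747 and 1488 counts in controls A and B. Both deleted libraries were below both controls, and its mean was 35.3 ± 1.37 CPM in deleted cells and 51.1 ± 10.4 CPM in control cells (SD, n = 2 each). The log2 change of the total was -0.53 (SE 0.11, adjusted p = 0.0593, edgeR with line as a block), just short of the threshold. Line A had a log2 ratio of -0.69 and line B one of -0.35. DESeq2 with line as a block gave it an adjusted p of 0.0255, and the fit with no filter on low counts 0.0291, both past the threshold. Without the deleted library of line A the change was -0.59 with an adjusted p of 0.769, in a fit that has no line term and 1 deleted library. It was -0.31 without control A and -0.74 without control B (adjusted p = 0.863 and 0.866).

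Wnt7b and Wnt7a, which signal through beta-catenin and are known for brain angiogenesis and the blood-brain barrier, had lower values in the deleted library of line A and nearly equal values in line B. Wnt7b had 2841 and 2345 counts in deleted A and B, against 3672 and 2477 counts in controls A and B. In line A the log2 ratio of CPM was -0.54 (95% counting interval -0.61 to -0.47), and in line B it was 0.02 (-0.06 to 0.10). Over both lines the log2 change was -0.27 (SE 0.14, adjusted p = 0.268). Wnt7a had 1063 and 1698 counts in deleted A and B, against 1403 and 1840 counts in controls A and B. Its ratio was -0.57 (-0.69 to -0.45) in line A and -0.02 (-0.12 to 0.08) in line B. Its log2 change was -0.29 (SE 0.14, adjusted p = 0.241). Wnt5a, a ligand known mainly for signals outside the beta-catenin branch, had 4562 and 1814 counts in deleted A and B, against 3109 and 2138 counts in controls A and B. It was highest in the deleted library of line A and lowest in the deleted library of line B, and its log2 change was 0.12 (SE 0.14, adjusted p = 0.579). Wnt7b, Wnt5a and Wnt5b each overlap a gene on the opposite strand (AU022754, Gm2670 and Fbxl14). Whether counting used strand is not given in the sources used here, so reads of such pairs cannot be told apart. Of the other tested members, Fzd5, Sfrp2, Axin1 and Axin2 also overlap a gene on the opposite strand. Wnt2b, Fzd3, Tcf7, Tcf7l1, Tcf7l2 and Lef1 overlap a gene on the same strand, so their counts carry a like limit.

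The other tested ligands were low. Wnt5b had 102 to 343 counts, Wnt9a 32 to 112, Wnt2 21 to 43, Wnt2b 38 to 44 and Wnt4 3 to 42. Wnt4 had 42 and 11 counts in deleted A and B, against 20 and 3 counts in controls A and B, higher in the deleted library of each line. Its log2 change was 1.16 (SE 0.43, adjusted p = 0.152), with ratios of 0.90 (0.10 to 1.75) in line A and 1.97 (0.05 to 4.45) in line B. Each of the 11 other ligands, Wnt1, Wnt3, Wnt3a, Wnt6, Wnt8a, Wnt8b, Wnt9b, Wnt10a, Wnt10b, Wnt11 and Wnt16, had at most 13 counts in any library. Wnt3a, Wnt8a and Wnt9b had 0 in all 4, which allows up to 3 counts per library, or 0.0882 to 0.100 CPM.

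Several of these low ligands are neighbours in the genome. On chromosome 1 Wnt6 and Wnt10a are 6196 bases apart, with at most 13 and 1 counts, and on chromosome 15 Wnt10b and Wnt1 are 11706 bases apart, with at most 1 and 2 counts. On chromosome 11 Wnt9b and Wnt3 are 24328 bases apart, with at most 0 and 11 counts. Wnt3a and Wnt9a, also on chromosome 11 and 16175 bases apart, are the exception: Wnt3a had 0 counts in all libraries and Wnt9a 112 and 32 in deleted A and B, against 69 and 66 in controls A and B.

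All 10 Frizzled receptor genes were tested on total counts, and 1 rose and 0 fell, with 5 positive and 5 negative changes (median 0.06). Fzd9 is a receptor expressed in neural progenitors and known, from mice that lack it, for hippocampal development. It lies at chr5:135248938-135251230 on the minus strand, with no other annotated gene over it. Fzd9 had 4262 and 4484 counts in deleted A and B, against 1870 and 1786 counts in controls A and B. Both deleted libraries were far above both controls, and the means were 134 ± 9.87 CPM in deleted cells and 57.5 ± 7.14 CPM in control cells (SD, n = 2 each). The log2 change was 1.22 (SE 0.11, adjusted p = 0.0217, edgeR with line as a block). Within the lines, 1 library against 1, the log2 ratio was 1.02 (95% counting interval 0.94 to 1.10) in line A and 1.42 (1.34 to 1.50) in line B. The change was 1.21 in a fit without the line, where the adjusted p was 0.341. Without the deleted library of line A it was 1.28 (adjusted p = 0.552), and over the fits that left out any 1 of the 4 libraries it ran from 1.09 to 1.35, with adjusted p from 0.218 to 0.866. In each of these 5 fits, which have no line term, 0 of all genes tested were called in either direction.

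Fzd9 made 34.8% and 48.0% of the summed Frizzled level per length in deleted A and B, against 24.2% and 25.1% in controls A and B. The sum itself was 159 and 128 CPM per kb in deleted A and B, against 113 and 91.2 in controls A and B. Fzd9 thus led the Frizzled genes in the deleted library of line B, while Fzd1 led in the other 3 libraries. Fzd1 made 36.9% and 20.1% in deleted A and B, against 38.4% and 31.5% in controls A and B.

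**Figure D2:**
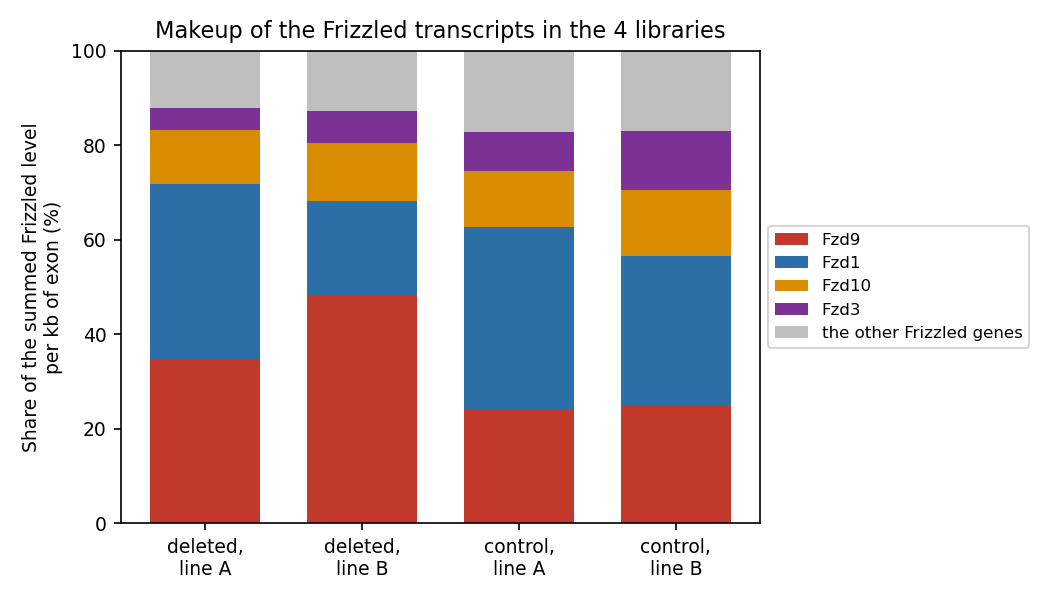
Share of the summed Frizzled level (CPM per kb of exon, in percent) in each library, stacked for Fzd9, Fzd1, Fzd10, Fzd3 and the other 6 Frizzled genes, with the deleted libraries left of the controls. Fzd9 makes 34.8% and 48.0% in deleted A and B against 24.2% and 25.1% in controls A and B, and Fzd3 makes 4.83% and 6.70% in deleted A and B against 8.38% and 12.7% in controls A and B.

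Fzd10, a receptor of the dorsal neural tube, lies on the same chromosome (chr5:128601106-128604093, plus strand). It had 1981 and 1641 counts in deleted A and B, against 1293 and 1396 counts in controls A and B. Both deleted libraries were above both controls, and its mean was 55.3 ± 5.26 CPM in deleted cells and 42.2 ± 1.59 CPM in control cells (SD, n = 2 each). On total counts the log2 change was 0.38 (SE 0.08, adjusted p = 0.0559), which did not pass. It passed with no filter on low counts (adjusted p = 0.0381) and did not in DESeq2 with line as a block (adjusted p = 0.113). Without the deleted library of line A it was 0.28 with an adjusted p of 0.777.

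Fzd3, a receptor known from mice for its role in axon tract formation through planar cell polarity, had lower values in deleted cells. It had 3304 and 3496 counts in deleted A and B, against 3609 and 5046 counts in controls A and B. In CPM, 98.4 and 110 in deleted A and B lay below 121 and 148 in controls A and B. The log2 change on total counts was -0.37 (SE 0.07, adjusted p = 0.0558). DESeq2 with line as a block gave an adjusted p of 0.0422 and the fit with no filter 0.0312, and without the deleted library of line A the change was -0.30 with an adjusted p of 0.777. Without control B it was -0.23 (adjusted p = 0.872). Gm27263 overlaps Fzd3 on the same strand and Gm9086 on the opposite strand, so its counts are uncertain to that extent.

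**Figure D3:**
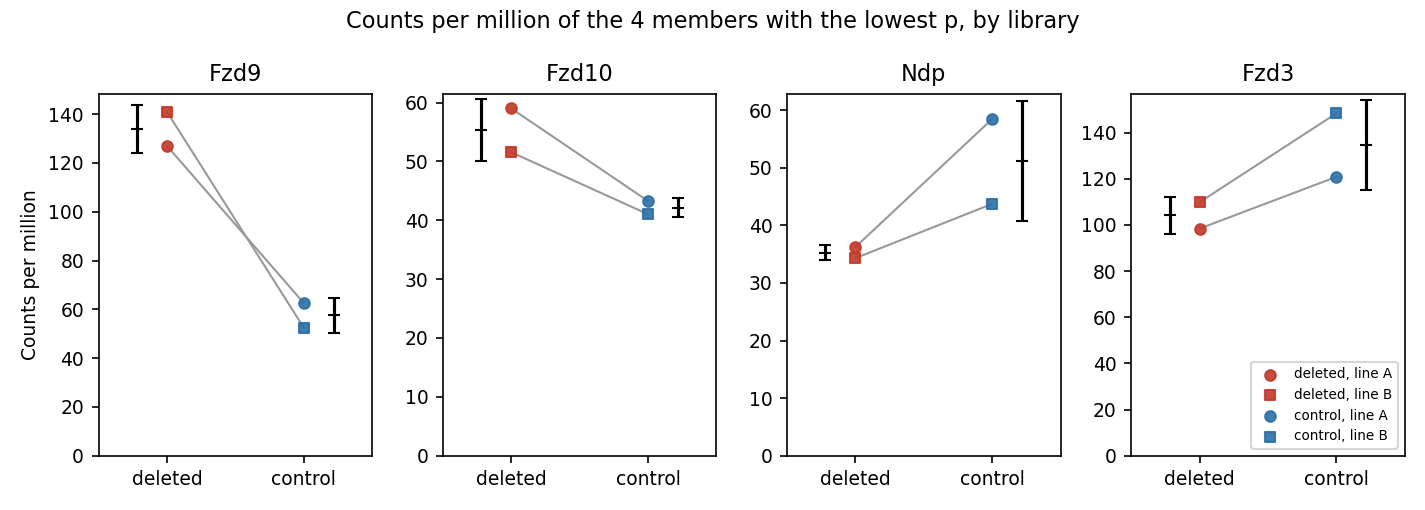
Level in CPM of the 4 members with the lowest p, Fzd9, Fzd10, Ndp and Fzd3, in the deleted (red) and control (blue) libraries, with circles for line A, squares for line B, a grey line joining the libraries of a line, and black bars at the group mean ± SD (n = 2). Both deleted libraries lie above both controls for Fzd9 (127 and 141 CPM in deleted A and B against 62.6 and 52.5 CPM in controls A and B) and Fzd10, and below both for Ndp and Fzd3.

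The sequences upstream of Fzd9, Fzd10 and Ndp are given to show their CG content. Fzd9 rose, and Fzd10 had higher and Ndp lower values in deleted cells. The CG content is high at Fzd9 and Fzd10 and somewhat below the median of all promoter windows at Ndp. Fzd3, which also had lower values in deleted cells, has no window in the promoter set and is missing from this comparison. The sequences are the 250 bases before the RefSeq transcription start in GRCm38.p6, written along the gene's strand, with CG pairs in capitals. For Fzd9 (chr5:135251048-135251297, minus strand) this start lies inside the deposited gene span.
Fzd9: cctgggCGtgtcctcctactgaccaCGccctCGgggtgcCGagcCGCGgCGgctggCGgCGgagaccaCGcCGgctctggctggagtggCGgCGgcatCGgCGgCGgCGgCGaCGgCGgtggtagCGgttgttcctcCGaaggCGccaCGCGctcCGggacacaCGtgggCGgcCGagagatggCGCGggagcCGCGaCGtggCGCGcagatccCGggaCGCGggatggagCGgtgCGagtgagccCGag
Fzd10, chr5:128600856-128601105, plus strand: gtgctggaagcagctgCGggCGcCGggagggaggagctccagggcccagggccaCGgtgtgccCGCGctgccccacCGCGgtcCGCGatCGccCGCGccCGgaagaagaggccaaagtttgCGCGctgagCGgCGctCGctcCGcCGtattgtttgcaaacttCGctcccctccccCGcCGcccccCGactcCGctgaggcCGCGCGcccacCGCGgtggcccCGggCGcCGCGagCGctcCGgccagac
Ndp, chrX:16911775-16912024, minus strand: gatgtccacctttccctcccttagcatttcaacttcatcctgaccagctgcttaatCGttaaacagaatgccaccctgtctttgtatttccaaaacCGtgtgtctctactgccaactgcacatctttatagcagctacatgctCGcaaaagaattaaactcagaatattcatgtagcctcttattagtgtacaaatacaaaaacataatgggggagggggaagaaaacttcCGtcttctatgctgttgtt
The Fzd9 window held 42 CG pairs, more than 99.1% of the 32851 promoter windows of the mouse RefSeq table, where the median was 6. Fzd10 held 37, more than 97.8% of windows, and Ndp held 4, more than 37.8%. Windows rich in G and C were not particular to Fzd9 and Fzd10. The share of G and C bases was 76.4% at both, and also 76.4% at Fzd5, which was not called. It was 87.6% at Wnt3a, which had no count. Whether CG content goes with the direction of change was not tested. No methylation or binding was measured here.

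The remaining receptors were not called on total counts. Fzd1 had 8262 and 3445 counts in deleted A and B, against 5428 and 4102 counts in controls A and B. It was highest in the deleted library of line A and lowest in the deleted library of line B, and its log2 change was 0.14 (SE 0.15, adjusted p = 0.568). Fzd7 had 797 and 840 counts in deleted A and B, against 620 and 762 counts in controls A and B, with a log2 change of 0.21 (SE 0.10, adjusted p = 0.216). Fzd5 had 848 and 632 counts in deleted A and B, against 643 and 419 counts in controls A and B. Its log2 change was 0.45 (SE 0.15, adjusted p = 0.123), and its ratio was positive in each line. Fzd2 had 590 to 812 counts, Fzd4, the receptor of norrin, 293 to 437, Fzd8 206 to 377 and Fzd6 22 to 76, with log2 changes between -0.26 and -0.01.

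The co-receptors differed little. Lrp6 had 4061 and 4226 counts in deleted A and B, against 3969 and 4393 counts in controls A and B, a log2 change of -0.05 (SE 0.08, adjusted p = 0.678). Lrp5 had 1654 and 1393 counts in deleted A and B, against 1346 and 1542 counts in controls A and B, a log2 change of 0.03 (SE 0.08, adjusted p = 0.806). For both genes the libraries of the groups overlapped in CPM.

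Of the 8 antagonists, 5 were tested. All 5 had positive log2 changes (median 0.50, against 0.01 over all genes tested), and none passed the threshold. That median is the change of Dkk3 itself (SE 0.42). By line, Sfrp2, Sfrp4 and Sfrp5 had a positive ratio in each, while Dkk3 and Sfrp1 did not. Dkk3 had a log2 ratio of 1.32 in line A and -0.15 in line B. Sfrp1 had one of 0.20 in line A and -0.05 in line B. Sfrp2, a secreted Frizzled-like protein that binds Wnts, was the most abundant per length, with 377 and 627 counts in deleted A and B, against 229 and 501 counts in controls A and B. The deleted library was above the control in each line, but deleted A lay below control B, and the log2 change was 0.48 (SE 0.12, adjusted p = 0.0842). Sfrp5 had 16 and 25 counts in deleted A and B, against 6 and 2 counts in controls A and B, with a log2 change of 2.27 (SE 0.68, adjusted p = 0.104). Its ratio was 1.25 (95% counting interval -0.18 to 2.89) in line A and 3.74 (1.74 to 6.86) in line B. Sfrp4 had 79 and 64 counts in deleted A and B, against 66 and 21 counts in controls A and B, and Dkk3 56 and 48 counts in deleted A and B, against 20 and 57 counts in controls A and B. Sfrp1 had 138 to 187 counts. Dkk2 had 1 count in control A and none in the other libraries, and Dkk1 and Dkk4, which block Lrp5 and Lrp6, had 0 in all 4.

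The 4 R-spondins were all too low to test. Rspo1 had 2 to 7 counts per library, and Rspo2, Rspo3 and Rspo4 at most 2.

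Axin1 and Axin2 encode the scaffold of the beta-catenin destruction complex, and Axin2 is itself a widely used target gene of the pathway. Axin2 had 1689 and 2149 counts in deleted A and B, against 1798 and 2507 counts in controls A and B. The deleted library was lower than the control within each line, the groups overlapped, and the log2 change was -0.20 (SE 0.07, adjusted p = 0.151). Axin1 had 1890 and 1896 counts in deleted A and B, against 1968 and 2208 counts in controls A and B. In CPM both deleted libraries, at 56.3 and 59.6, were below both controls, at 65.9 and 64.9, with a log2 change of -0.18 (SE 0.07, adjusted p = 0.166).

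Among the TCF/LEF factors, which bind DNA as partners of beta-catenin, none of 4 was called. Tcf7l2 had 1057 and 590 counts in deleted A and B, against 849 and 618 counts in controls A and B, a log2 change of 0.09 (SE 0.10, adjusted p = 0.595). Tcf7 had 214 to 306 counts and Tcf7l1 348 to 427. Lef1 was the lowest tested member per length, with 22 and 21 counts in deleted A and B, against 9 and 21 counts in controls A and B.

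More members passed the threshold between the lines than between the groups. The comparison of the lines, the line term of the same fit, was added after the data were seen. Of the 32 tested members, 6 were higher in line A than in line B (18.8%, against 6.63% of the 14860 genes tested) and 1 was lower (3.13%, against 3.51%). Wnt5b (log2 difference 1.51, SE 0.18, adjusted p = 0.0188), Wnt5a (1.00, SE 0.14, adjusted p = 0.0234) and Wnt4 (2.19, SE 0.44, adjusted p = 0.0482) were the ligands higher in line A. Fzd6 (1.75, SE 0.27, adjusted p = 0.0292), Fzd1 (0.90, SE 0.15, adjusted p = 0.0341) and the factor Tcf7l2 (0.72, SE 0.10, adjusted p = 0.0236) were higher in line A as well. Sfrp2 was lower in line A, by a log2 difference of -0.86 (SE 0.12, adjusted p = 0.0254). Fzd9, by contrast, had a line difference of 0.06 (SE 0.11, adjusted p = 0.771). With 1 library left out, only Wnt5a kept an adjusted p under 0.05, and only without control A (1.18, adjusted p = 0.0432). Without deleted A the differences of these 7 genes kept their sign, with adjusted p from 0.169 to 0.562.

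**Figure D4:**
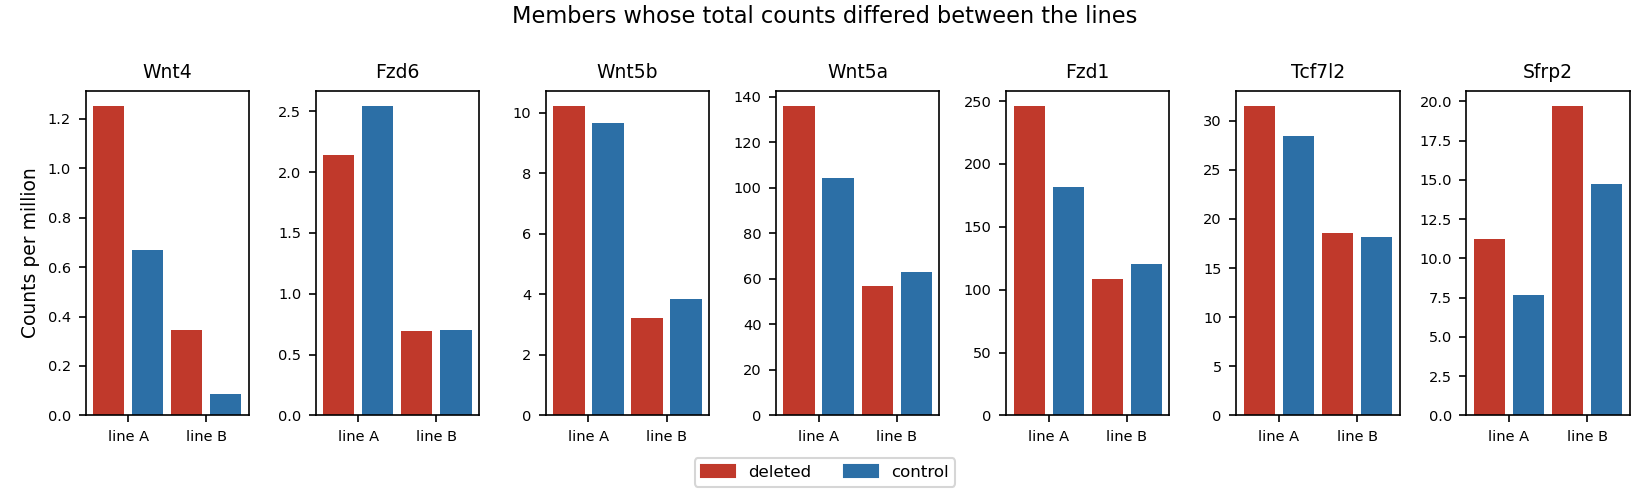
Level in CPM of the 7 members that differed between the lines, with 1 bar per library (red deleted, blue control, each axis from 0). Wnt4, Fzd6, Wnt5b, Wnt5a, Fzd1 and Tcf7l2 have both libraries of line A above both of line B, and Sfrp2 has both libraries of line A below both of line B.

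The change with deletion was in the same direction in both lines for 20 of the 32 tested members, 10 upward and 10 downward, and in opposite directions for 12, against 25.5% of all genes tested. For 4 of the 12, Wnt5a, Wnt9a, Fzd1 and Fzd8, the counting interval left 0 on opposite sides in the lines. Fzd1 had a log2 ratio of 0.44 (0.39 to 0.49) in line A and -0.16 (-0.22 to -0.09) in line B, and Wnt5a had 0.38 (0.32 to 0.45) in line A and -0.14 (-0.23 to -0.05) in line B. These intervals cover counting error only, and each line has 1 library per group.

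**Figure D5:**
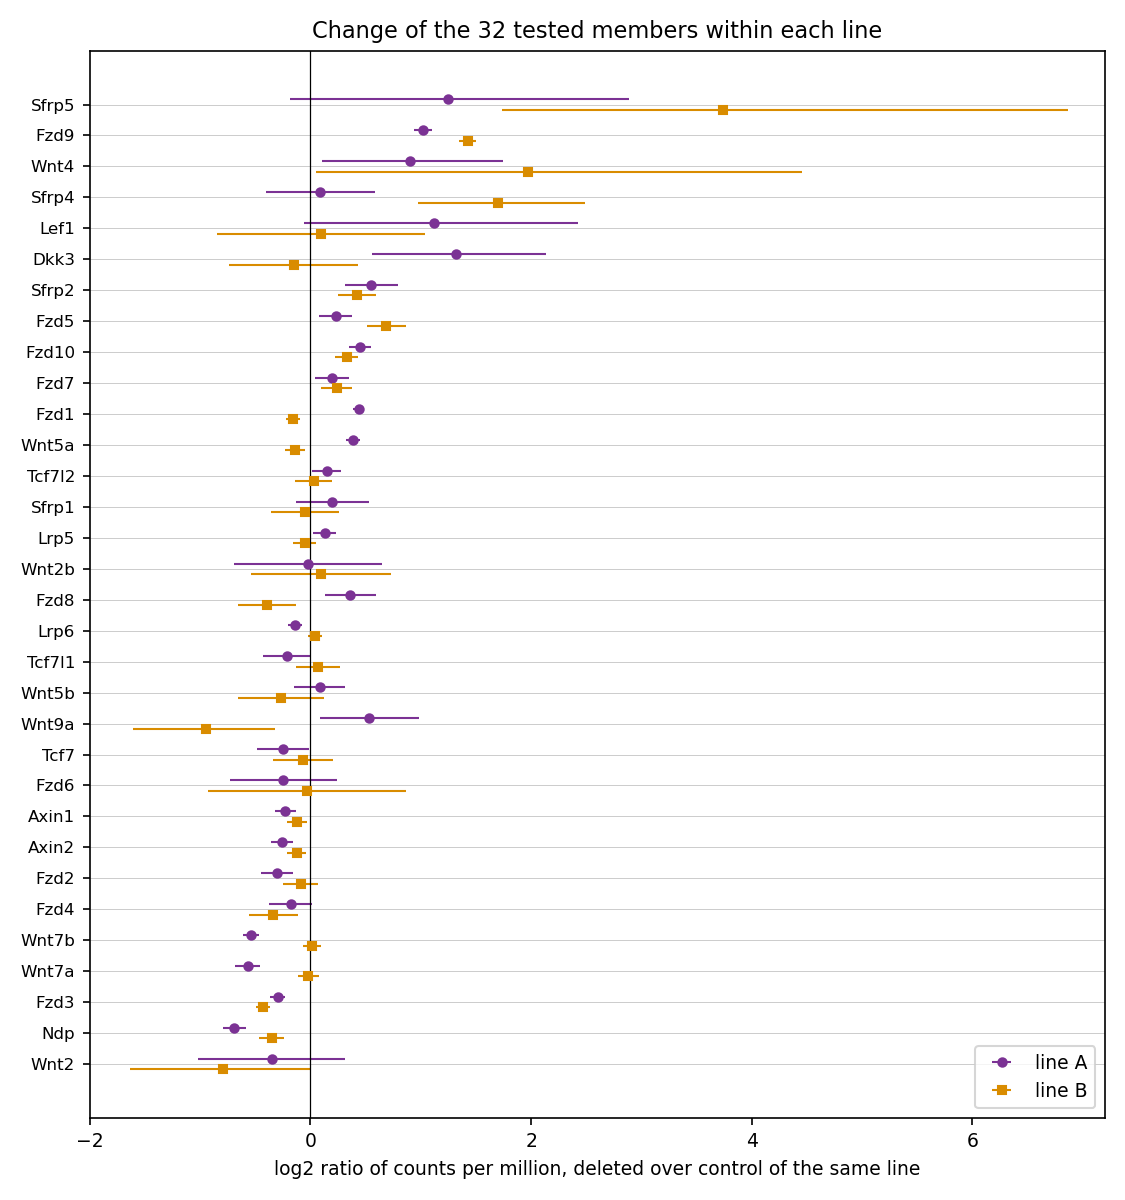
log2 ratio of CPM, deleted over control of the same line, for the 32 tested members in line A (purple circles) and line B (orange squares), with bars for 95% intervals that cover counting error only. Fzd9 lies at 1.02 in line A and 1.42 in line B, Ndp at -0.69 and -0.35, and the widest bars belong to low genes such as Sfrp5 and Wnt4.

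Other genes of the pathway were followed in 4 lists, which were chosen with earlier results of these data known. Of 24 intracellular pathway genes, all tested, 0 rose and 2 fell (median log2 change -0.06). Over all 14860 genes tested, 3.71% rose and 1.89% fell. Tle3, a co-repressor that binds TCF/LEF factors, had 1536 and 1377 counts in deleted A and B, against 2878 and 2479 counts in controls A and B, and its log2 change was -0.92 (SE 0.10, adjusted p = 0.0231). Bcl9, a co-activator of beta-catenin, had 1721 and 1673 counts in deleted A and B, against 2107 and 2332 counts in controls A and B, and its log2 change was -0.43 (SE 0.07, adjusted p = 0.0429). The genes of the destruction complex and beta-catenin itself were not called, among them Ctnnb1 (0.05, adjusted p = 0.711), Apc (-0.02, adjusted p = 0.902) and Gsk3b (-0.28, adjusted p = 0.0751).

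Of 17 tested genes for Wnt secretion, extracellular modulation and receptor turnover, 1 rose and 0 fell (median 0.19). The shares over all genes tested were 3.71% and 1.89%. Gpc6, a cell-surface glypican, had 3468 and 3008 counts in deleted A and B, against 1822 and 2339 counts in controls A and B, with a log2 change of 0.60 (SE 0.09, adjusted p = 0.0411). Of 15 further co-receptors and planar cell polarity genes none was called (median 0.02). The most abundant of these were Daam1, with 6319 and 7425 counts in deleted A and B, against 5847 and 9844 counts in controls A and B, and Ptk7, with 6515 and 4562 counts in deleted A and B, against 5770 and 5325 counts in controls A and B.

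Of 13 tested genes known as Wnt targets, 1 rose and 0 fell (median 0.07), against 3.71% and 1.89% of all genes tested. Tnfrsf19, a member of the tumour necrosis factor receptor family, had 4312 and 4063 counts in deleted A and B, against 2489 and 2820 counts in controls A and B, with a log2 change of 0.62 (SE 0.06, adjusted p = 0.0227). Ccnd1, which encodes cyclin D1, had a log2 change of -0.01 (SE 0.09, adjusted p = 0.976). Lgr5, the R-spondin receptor that is also in the list for receptor turnover, had 77 and 55 counts in deleted A and B, against 18 and 27 counts in controls A and B, with a log2 change of 1.50 (SE 0.33, adjusted p = 0.0659).

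The cell type lists give the setting of these changes. The astrocyte genes that rose were S100b (2.64), Aqp4 (2.01), Gfap (1.38), Slc1a3 (0.96), Gja1 (0.64) and Aldh1l1 (0.62), all on the log2 scale. None of 5 tested neuron markers or 4 tested oligodendrocyte markers was called. Of the 11 tested interferon-stimulated genes none was called with line as a block, and all 11 had positive changes. The log2 ratio of Fzd9 was 1.42 in line B, where the interferon list had a median of 0.40. It was 1.02 in line A, where that median was 3.60. Each line has 1 library per group, and a link between the Fzd9 change and either list was not tested.

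The TCF/LEF motif was searched in the RefSeq promoter windows (250 bases before to 50 after the start) as CTTTGAT and CTTTGAA on both strands. Of the 32851 windows in the table, 3.73% held CTTTGAT, 5.14% held CTTTGAA and 8.65% held either. Of 41 windows of 33 members in the table, 3 held either motif, those of Dkk1, Wnt11 and Wnt5b. Among 27 windows of 20 tested members, Wnt5b alone held it. A match is a description of these letters in these windows and no more.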

How the data were processed

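RNA sequencing of 4 libraries (2 deleted, 2 control) was analysed. The authors deposited raw counts per gene, and only the 4 columns of all aligned reads were used. The other 8 columns of samples, counts split by parental genome, were not used, and the tests planned on them were not run. Column names give the group and a line number but not the single sample. This holds for the 4 columns used as well, which were placed by group and line number. The submitters' processing notes name edgeR, TopHat2 2.0.12, bcl2fastq and the build mm10. For the counting tool, annotation and strand setting: not given in the sources used here. In all, 25965 entries were deposited, of which 66 repeat a symbol.

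Groups came from the labels and lines from the numbers in the column names. The labels say that each line was split, which pairs the libraries; deviations from the group means correlated at r = 0.716 over 14860 genes, which are not independent replicates. The labels do not say that the lines came from separate animals, so p-values reflect only how these cultures vary, which may be technical. A chi-square test over genes gave 71.1 per degree of freedom between the deleted libraries and 43.9 between the controls, so neither pair is 1 library deposited again.

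Tests used edgeR 4.0.16 in R 4.3.3 (quasi-likelihood, TMM, filterByExpr, line as a block, Benjamini-Hochberg threshold 0.05 over all genes tested). The SE is the log2 change divided by the square root of F. DESeq2 1.42.0, other size factors, no filter, no line term and leaving out each library were the alternatives. Fits of deleted against control with 1 library left out have no line term. Fits of line A against line B with 1 library left out have the line term alone and no term for deletion. In both, the lone library of a group or line is assumed to vary like the other group or line. Within-line ratios have exact 95% intervals (SciPy 1.17.1), which cover counting error only. Levels per length use GENCODE M21 exon lengths, and all 50 members matched its position. Promoters are from the RefSeq table. Tests were tried on simulated counts first.

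The members and gene lists were chosen with earlier results of these data known. The members described in full are those called on total counts and the 10 most abundant others. From the other lists, called genes were named, or the 2 with the highest mean count, and the test of the neural stem cell markers is not reported here; Ctnnb1, Apc, Gsk3b, Ccnd1 and Lgr5, and Ndp and the other members outside this rule with counts per library, were named after their values were seen.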

Additional observations from a re-analysis of the deposited data

Results flagged for a closer look

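In 12 of the 32 tested members the deleted library moved one way in line A and the other way in line B, against 25.5% of all genes tested. There is 1 library per group in each line, so the difference between the lines was not tested. Given as the log2 ratio (deleted over control) in line A minus that in line B, the ligands Wnt9a (1.48), Wnt5a (0.53) and Wnt5b (0.35) were upward in line A and downward in line B. Wnt7b (-0.56) and Wnt2b (-0.12) were downward in line A and upward in line B. Of the receptors and co-receptors, Fzd8 (0.75), Fzd1 (0.59) and Lrp5 (0.18) were upward in line A, and Lrp6 (-0.18) was downward there. The antagonists Dkk3 (1.47) and Sfrp1 (0.25) were upward in line A, and the factor Tcf7l1 (-0.28) was downward in line A. For Wnt9a, Wnt5a, Fzd1 and Fzd8 the counting intervals of both lines left 0, and for the other 8 at least 1 interval held 0.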

How the results depend on the processing

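With line as a replicate block, which the split lines call for, Fzd9 changed by 1.22; with no replicate block it changed by 1.21 (adjusted p = 0.341), and 0 members rose and 0 of all genes were called. Without the filter on low counts, 2 members rose (Fzd9 and Fzd10) and 2 fell (Fzd3 and Ndp), with 1131 genes higher and 671 lower, against 551 and 281 with the filter, and 2 members were lower in line A (Sfrp2 and Axin2). DESeq2 with line as a block called 1 member higher (Fzd9) and 2 lower (Fzd3 and Ndp), and 772 genes higher and 427 lower. The cause was not tested. Leaving out 1 library gave 0 to 0 members higher and 0 to 0 lower in deleted cells, where 0 of all genes were called in any of these fits. Between the lines it gave 0 to 1 members higher and 0 to 0 lower, with 0 to 157 and 0 to 19 of all genes. Of the uncalled members, only the 10 most abundant and Ndp were followed over the fits of deleted against control. Those that kept their sign were Ndp (-0.74 to -0.31), Fzd3 (-0.51 to -0.23), Axin1 (-0.23 to -0.15) and Fzd10 (0.28 to 0.47). For the rest of those followed, the log2 changes ran across 0. The ranges were -0.49 to 0.68 for Fzd1, -0.56 to 0.68 for Wnt5a, -0.65 to 0.12 for Wnt7b and -0.69 to 0.067 for Wnt7a. They were -0.43 to 0.0012 for Axin2, -0.13 to 0.0077 for Lrp6 and -0.058 to 0.11 for Lrp5. With 2 libraries per group and 18 members at 13 counts or fewer, small changes of low ligands, Dkk genes and R-spondins could not be seen.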
